A study of Mus musculus with 10 samples.

Results

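The Wnt pathway targets and TCF factors described here were 9 genes named by their symbols, Axin2, Lef1, Tcf7, Tcf7l1, Sp5, T, Cdx1, Nkd1 and Ctnnb1. Each symbol matched 1 Ensembl identifier, so the group held 9 of the 22713 genes listed in the deposited mRNA tables, and the rule for membership used no measured value. Mouse embryonic stem (ES) cells had been sequenced to ask how gene expression depended on Pontin (gene Ruvbl1), an ATPase of chromatin remodelling complexes that is also a partner of Wnt-dependent transcription. The 8 mRNA libraries came from 2 cell lines and were deposited in 2 tables that had been scaled separately. The first table held 1 untreated library of Pontinf/f; CreER ES cells (WT), 1 library of the same line after 3 days with OHT (OHT 3D), 1 after 4 days (OHT 4D), and 1 library of ZHBTc4 ES cells after 2 days with tetracycline (Tc 2D).

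In the Pontinf/f; CreER line both Ruvbl1 alleles carried loxP sites around an exon, and OHT activated the Cre fusion, so the untreated cells also carried the floxed alleles and the Cre. In ZHBTc4 cells Oct4 (Pou5f1) came from a transgene that tetracycline shut off. The second table held ZHBTc4 cells infected with lentivirus for 4 days, with 2 libraries of a control shRNA and 2 of an shRNA against the noncoding RNA linc1253. Chromatin immunoprecipitation (ChIP) with an antibody against Pontin or against GFP as control gave 1 library each, both from untreated ZHBTc4 cells. The ES cells were grown with LIF either on fibroblast feeders or without them, and which libraries had feeders was not given in the sources used here. Nothing stated that the 2 libraries of an shRNA group were separate cultures, so their p-values measure only the spread between those libraries. Tc 2D and WT differed in cell line as well as in treatment, and these cannot be told apart.

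In the canonical Wnt pathway a ligand bound by Frizzled and Lrp receptors keeps β-catenin, the product of Ctnnb1, from being degraded by a complex built on Axin and Apc. β-Catenin then enters the nucleus and binds the TCF factors, encoded by Tcf7, Lef1, Tcf7l1 and Tcf7l2, which sit at target genes. In mouse ES cells Tcf7l1 acts mainly as a repressor, and Wnt signals favour self-renewal but also induce genes of the primitive streak such as T.

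Each gene was placed on genome build NCBIM37. Axin2 lies at chr11:108781663-108812097 on the plus strand, and Tcf7 at chr11:52065873-52096681 on the minus strand. Lef1 lies at chr3:130813389-130927274, plus strand, and Tcf7l1 at chr6:72576372-72739248, minus strand. Sp5 lies at chr2:70312980-70315786, T at chr17:8627288-8635361, Nkd1 at chr8:91045243-91118786 and Ctnnb1 at chr9:120838334-120869625, all on the plus strand.

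TCF factors recognise a short sequence whose core was searched for here as CTTTGAT and CTTTGAA on both strands. The last letter of these words differs, so no position could be counted for both. In the 300 bases upstream of the annotated gene start, 5 of the 9 genes held at least 1 match, against 8.90% of 22380 protein-coding promoters. Tcf7, Sp5, T and Nkd1 held 1 match each and Cdx1 held 2. The stretches around the matches are printed for 4 of these 5 members, Tcf7, Sp5, T and Nkd1, to show the word in its place. The sequence of Cdx1, the member with the most matches, is not printed here. Each is 67 bases of NCBIM37 read 5′ to 3′ along the gene, with the match in capitals.
Tcf7: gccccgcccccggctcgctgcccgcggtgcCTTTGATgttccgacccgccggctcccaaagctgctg
Sp5: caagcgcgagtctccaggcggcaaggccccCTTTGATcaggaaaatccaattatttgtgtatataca
T: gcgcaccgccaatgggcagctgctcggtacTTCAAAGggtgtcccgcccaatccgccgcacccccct
Nkd1: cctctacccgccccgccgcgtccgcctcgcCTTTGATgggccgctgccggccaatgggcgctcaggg

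The Tcf7 stretch is chr11:52096840-52096906 on the minus strand, with its match starting 195 bases upstream of the gene start. The Sp5 stretch is chr2:70312846-70312912, with the match 104 bases upstream. The T stretch is chr17:8627023-8627089, where the match, 235 bases upstream, lies on the opposite strand and so reads TTCAAAG. The Nkd1 stretch is chr8:91045140-91045206, with the match 73 bases upstream. From 2.5 kb upstream to 500 bases downstream all 9 genes held at least 1 match, but so did 66.4% of promoters. Sp5 held 5 matches in that wider window, a number reached or passed by 0.920% of promoters, and Axin2 and Tcf7 held 3 each, which 11.8% of promoters reached. A match describes these letters only and is no evidence of binding.

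The libraries held 17187595 to 37951742 reads on genes. Levels are given as CPM, the read counts of a gene scaled by the authors to a common library size. Ruvbl1 stood at 198 CPM in WT, 33.3 CPM at OHT 3D and 50.9 CPM at OHT 4D, so both OHT libraries carried the reduced Ruvbl1 mRNA their labels imply. Pou5f1 stood at 301 CPM in WT and 21.1 CPM at Tc 2D. Ruvbl1 was also lower at Tc 2D, at 85.0 CPM, with a ratio of 0.428 to WT (0.408 to 0.450) and of 0.482 to the shRNA controls (0.460 to 0.505). The level of linc1253 was not analysed here. Defining pluripotency markers (Pou5f1, Sox2, Nanog) summed to 1127 CPM in WT, 1040 after 3 days and 1152 after 4 days of OHT, and to between 1882 and 2235 CPM in the 4 shRNA libraries, but to 226 CPM at Tc 2D.

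Levels of different genes were compared as CPM per kb of exon. In WT, Ctnnb1 was the highest of the group at 128 CPM per kb, followed by Tcf7 at 28.2 and Tcf7l1 at 20.8 CPM per kb. Lef1 (1.58), Axin2 (1.22), Cdx1 (0.920) and Nkd1 (0.722 CPM per kb) formed a low group, and T (0.155) and Sp5 (0.0851 CPM per kb) were the lowest. In the 4 shRNA libraries Ctnnb1 ranged from 227 to 242, Tcf7l1 from 21.8 to 24.2 and Tcf7 from 17.3 to 20.8 CPM per kb, so these neighbours did not overlap. Nkd1 (0.694 to 1.09), Cdx1 (0.474 to 0.927) and Lef1 (0.213 to 0.835 CPM per kb) overlapped, as did Sp5 (0.135 to 0.264) and T (0.0892 to 0.152 CPM per kb). Ctnnb1, Tcf7 and Tcf7l1 thus held the top 3 places in every library. Below them, the highest level was that of Cdx1 at OHT 4D (6.28 CPM per kb), and Axin2 reached 2.55 CPM per kb at Tc 2D.

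**Figure D1:**
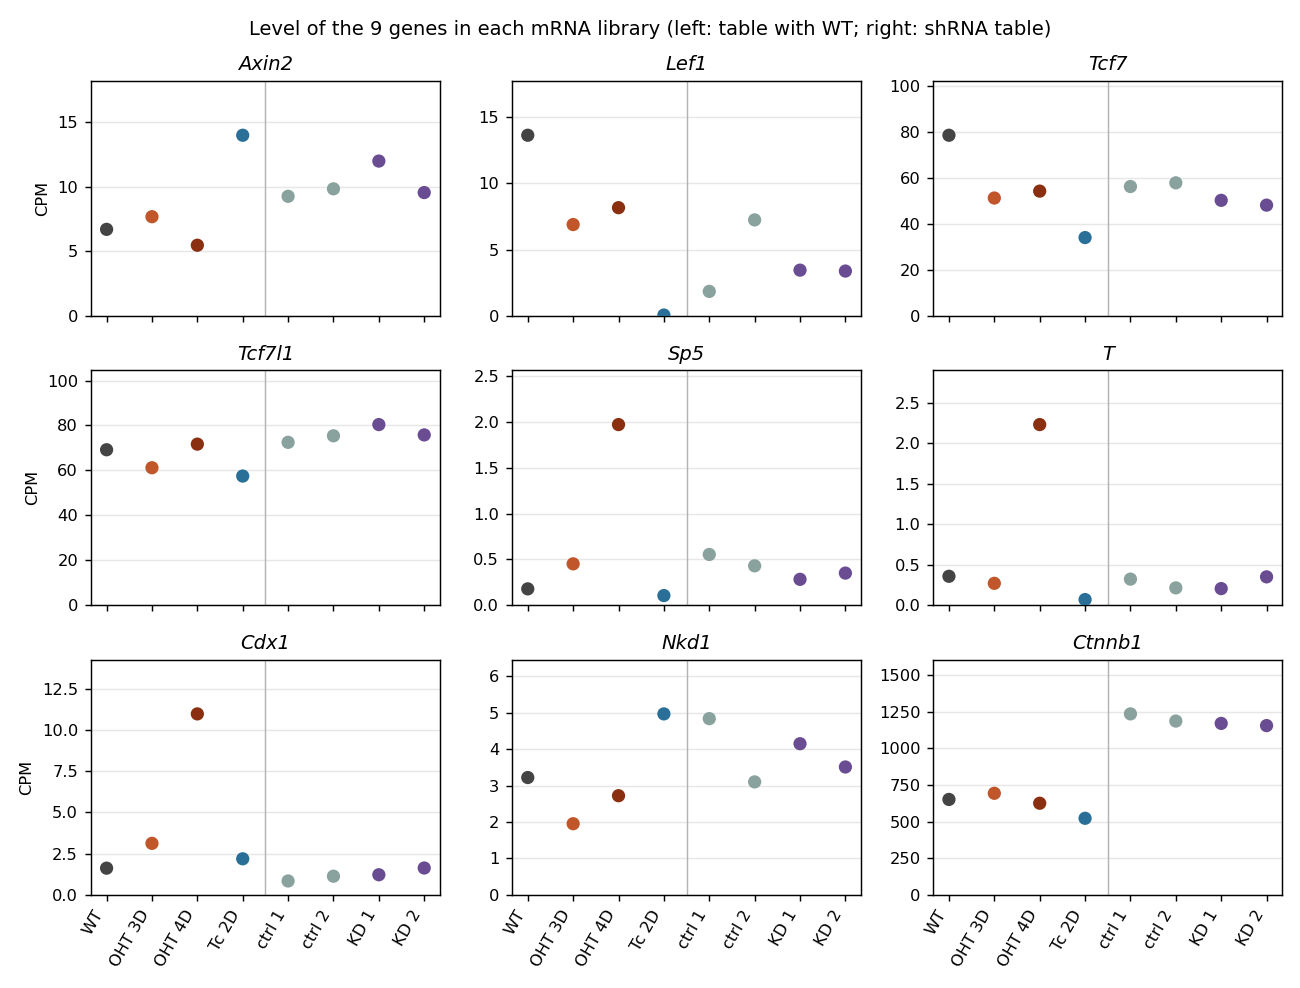
Level in CPM (vertical axes, each starting at 0) of each of the 9 genes in the 8 mRNA libraries, 1 point per library; ctrl and KD stand for shRNA control and linc1253 knockdown, and the vertical line separates the tables scaled separately. Sp5, T and Cdx1 were highest at OHT 4D (1.97, 2.23 and 11.0 CPM), and Lef1 was near 0 at Tc 2D (0.0705 CPM).

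After OHT the target transcription factor Cdx1 was called higher than WT at both times, and T and Sp5 at OHT 4D. The TCF factor Lef1 was called lower at both times and Tcf7 at OHT 3D, while Axin2, Nkd1, Tcf7l1 and Ctnnb1 were called at neither. With a pseudocount of 3 the OHT 4D difference of Lef1 was -0.58 and no longer called, and with a pseudocount of 0.5 the OHT 3D difference of Nkd1 was -0.60 and called. Both OHT libraries were compared with the same WT library. Each group was 1 library, so no test was possible and the counting intervals quoted for these comparisons (95%, exact Clopper-Pearson on reads) cover counting error only. A gene was called when the log2 difference of CPM + 1 exceeded 0.58 in either direction. All 9 genes passed the filter of more than 1 CPM in at least 1 library of this table, but Sp5 and T passed it only through OHT 4D, the library in which they were high. In bulk RNA, fewer cells of a type and less RNA per cell cannot be told apart.

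Among the target transcription factors, Cdx1, a caudal-type homeobox factor of the posterior embryo, stood at 1.61 CPM in WT, 3.12 after 3 days and 11.0 after 4 days of OHT. Its log2 difference was 0.66 at OHT 3D, with a CPM ratio of 1.94 (interval 1.28 to 2.99), and 2.20 at OHT 4D, with a ratio of 6.83 (4.80 to 9.98). With a pseudocount of 3 the OHT 3D difference was 0.41 and was no longer called. Cdx1 was therefore above WT at both times and higher at day 4 than at day 3, where the ratio between the OHT libraries was 3.52 (2.69 to 4.67).

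T, the Brachyury factor of primitive streak and nascent mesoderm, had 8 reads (0.358 CPM) in WT, 6 reads (0.271 CPM) after 3 days and 51 reads (2.23 CPM) after 4 days of OHT. The OHT 4D to WT ratio was 6.25 (2.94 to 15.2). Sp5, a zinc-finger factor induced by Wnt signals, had 4 reads (0.179 CPM) in WT, 10 (0.452 CPM) after 3 days and 45 (1.97 CPM) after 4 days of OHT. Its ratio to WT was 2.53 (0.730 to 11.1) at OHT 3D, an interval that includes equal levels, and 11.0 (4.02 to 42.2) at OHT 4D. Both genes were thus near the limit of detection until day 4, and even there they had about 2 CPM.

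Among the TCF factors, Lef1 stood at 13.6 CPM in WT, 6.88 after 3 days and 8.15 after 4 days of OHT. Its log2 differences were -0.89 and -0.68, with CPM ratios of 0.504 (0.412 to 0.615) and 0.598 (0.495 to 0.719). The 2 replicate libraries of the shRNA control differed from each other in Lef1 by 1.53 on the log2 scale in size (1.85 and 7.23 CPM), more than either OHT library differed from WT. Over all genes tested in that table, 3.10% differed by over 0.58 between the 2 control libraries and 2.60% between the 2 knockdown libraries. Tcf7, the TCF1 factor, stood at 78.6 CPM in WT, 51.3 after 3 days and 54.3 after 4 days of OHT, with ratios of 0.653 (0.605 to 0.704) and 0.691 (0.642 to 0.744). Its log2 difference of -0.61 was called at OHT 3D and that of -0.52 at OHT 4D was not, although the OHT libraries differed from each other by only 0.08. For Tcf7 the shRNA control replicates differed by -0.04 and the knockdown replicates by 0.06, less than either OHT difference. Tcf7l1, the TCF3 factor, stood at 69.2, 61.2 and 71.7 CPM, and was not called at either time.

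Axin2, a scaffold of the β-catenin destruction complex that is induced as negative feedback, stood at 6.71 CPM in WT, 7.69 after 3 days and 5.48 after 4 days of OHT. Its ratios to WT, 1.15 (0.915 to 1.44) and 0.817 (0.639 to 1.04), both had intervals that include equal levels. Nkd1, an inhibitor that binds Dishevelled, stood at 3.22, 1.95 and 2.72 CPM, with log2 differences of -0.52 and -0.18 that were not called. Ctnnb1 stood at 651, 693 and 625 CPM, with log2 differences of 0.09 and -0.06. At OHT 4D the targets Sp5, T and Cdx1 were called higher and Axin2 and Nkd1 were not called. Sp5 and T passed the filter only through that library, so this is no test of a split among the targets.

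By counts, OHT 3D had 1 of 9 members called higher and 2 called lower, where 6.01% and 5.88% of the 13449 genes tested were called higher and lower. OHT 4D had 3 of 9 called higher and 1 lower, against 6.48% and 8.89% of genes. Of the 3 called higher, Sp5 and T passed the filter only through OHT 4D and so had to differ. With a filter above 5 CPM Cdx1 alone was called higher, but it passed that higher filter only through OHT 4D as well. The median log2 difference of the members was -0.09 after 3 days and -0.06 after 4 days of OHT, close to the medians of all genes tested, -0.02 and 0.00.

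**Figure D2:**
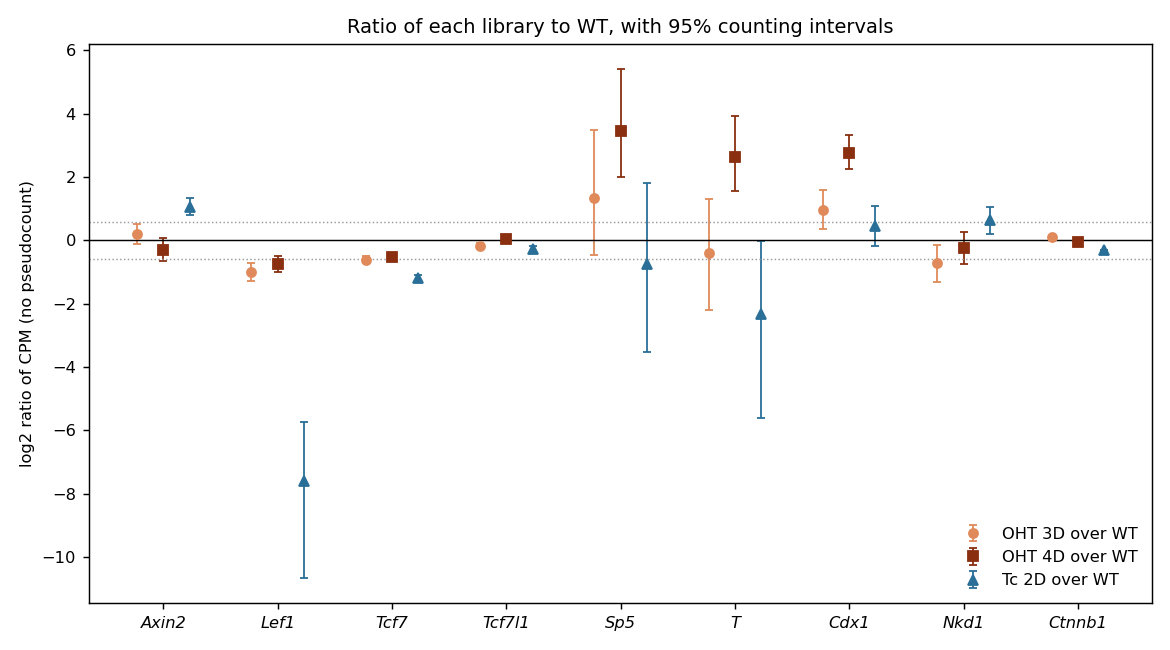
Log2 ratio of CPM to WT without a pseudocount (vertical axis) for the 9 genes at OHT 3D (circles), OHT 4D (squares) and Tc 2D (triangles); bars are 95% counting intervals, and dotted lines stand at 0.58 above and below 0. Sp5, T and Cdx1 lay above WT at OHT 4D (log2 ratios of 3.46, 2.64 and 2.77), and Lef1 lay at -7.60 at Tc 2D.

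Other measures moved with the OHT libraries. The 5 defining fibroblast markers summed to 17.6 CPM in WT, 106 after 3 days and 143 after 4 days of OHT. At each time 24 of the 27 fibroblast markers tested were called higher, where 6.01% and 6.48% of all genes were. Several of these markers, such as Col3a1 and Lox, passed the filter only through the OHT libraries, so the count is no test. The whole list of 30 summed to 965, 1375 and 1409 CPM, and none of its defining markers was at 0 reads in any of the 3 libraries. Of those sums Fn1 alone was 794, 642 and 556 CPM. The 3 defining primitive endoderm markers summed to 6.48, 10.1 and 19.5 CPM, and 10 of 13 tested were called higher at OHT 4D, where the whole list of 15 summed to 850 CPM against 470 in WT. The 14 primitive streak and mesoderm genes summed to 11.6, 11.7 and 19.0 CPM, with 1 of 5 tested called higher and 1 lower at OHT 3D. At OHT 4D 3 of the 5 were called higher, among them the member T and Wnt3, both of which passed the filter only through OHT libraries, while Eomes (-0.24) and Tbx6 (-0.30) were not called. The defining streak gene Mesp1 had 0 reads in WT. Of 13 trophectoderm markers tested, 6 were called higher and 2 lower at OHT 3D and 8 higher and 1 lower at OHT 4D. Their 4 defining markers summed to 0.671 CPM in WT, where Elf5 had 0 reads, and to 6.11 and 8.37 CPM after OHT, and the whole list of 14 to 287, 281 and 468 CPM. The part of these markers in the members' levels was not tested.

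Gene length moved with the OHT 4D library as well. Genes with over 8000 exon bases had a median log2 difference of -0.34 at OHT 4D and 28.5% of them were called lower, whereas genes with 1000 to 2000 exon bases had a median of 0.16 and 4.15% called lower. At OHT 3D the same classes had medians of 0.08 and -0.10. Lef1 has 8654 exon bases, and its difference was opposite in sign to the median of its length class at OHT 3D (-0.89) but of the same sign at OHT 4D (-0.68). Cdx1 has 1750 exon bases, and its difference at OHT 4D was 2.20, where the median of its length class was 0.16. Sp5 and T have 2100 and 2312 exon bases. The part of length in the members' levels was not tested.

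A list of 100 other pathway genes was set by role, but with earlier results of these data known. Of the 79 that passed the filter, 14 were called higher and 2 lower at OHT 3D, where 6.01% and 5.88% of all genes were called. At OHT 4D 20 were called higher and 7 lower, against 6.48% and 8.89% of all genes, so the number called lower was near the share of all genes. The 14 tested genes for ligands and secretion had 7 called higher and 0 lower at OHT 3D and 9 higher and 0 lower at OHT 4D, with median log2 differences of 0.54 and 1.11. The tested genes of this role that were not called include Wnt5b (-0.39 at OHT 3D) and Rspo1 (-0.41 and -0.07), a secreted enhancer of Wnt signals. Several of these passed the filter only in the libraries where they were high, so the counts describe the list and are no test of it.

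Wnt7b was the most abundant of the Wnt ligands called at both times, at 11.7 CPM in WT, 20.4 after 3 days and 30.9 after 4 days of OHT, with ratios of 1.75 (1.50 to 2.04) and 2.65 (2.29 to 3.06). Wnt3, a ligand needed for the primitive streak, had 0.179, 1.40 and 2.89 CPM, and Wnt3a had 0.358, 1.63 and 3.11 CPM. Wls, the carrier that brings Wnt proteins to the cell surface, stood at 4.83, 9.50 and 15.6 CPM. Wnt6 and Wnt9a were also called higher at both times, with log2 differences of 0.61 and 1.06 for Wnt6 and of 0.68 and 1.16 for Wnt9a. Wnt5a differed in time, at 1.34 CPM in WT, 3.57 at OHT 3D, where it was called higher, and 2.45 at OHT 4D, where it was not.

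Of the other target genes on the list, 5 of 8 tested were called higher at each OHT time, where 6.01% and 6.48% of all genes were. One of the 5, Cdx2, was above 1 CPM only in libraries in which it was high, so the count is no test. Ccnd2, a D-type cyclin, stood at 7.20 CPM in WT, 37.9 after 3 days and 23.8 after 4 days of OHT, and Myc at 19.8, 56.6 and 39.4 CPM. Bmp4, a ligand of another pathway, stood at 9.12, 29.6 and 25.2 CPM, Id2 at 14.3, 25.8 and 22.0 CPM, and Cdx2, the close relative of Cdx1, at 0.0894, 0.679 and 1.01 CPM. Eomes, a T-box factor, had the largest fall at OHT 3D among list genes with a mean of at least 5 CPM (abundant list genes), with a log2 difference of -0.67, ahead of Nkd2 (-0.56) and Csnk1e (-0.52), neither of which was called.

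The secreted antagonist Dkk2 had 1 read in WT, 78 after 3 days and 66 after 4 days of OHT, with a ratio to WT of 78.9 (13.8 to 3157) at OHT 3D. Sfrp4, another antagonist, was the only gene of the 100 called lower at both times, at 2.91, 1.54 and 1.23 CPM. The largest falls among abundant list genes at OHT 4D were Tnks, a poly-ADP-ribose polymerase that promotes Axin turnover, at 63.8, 79.5 and 19.6 CPM, Apc, a destruction complex scaffold, at 137, 154 and 66.0 CPM, and the co-receptor Lrp6 at 72.6, 77.5 and 42.6 CPM. Each of these was above WT at OHT 3D, and their exon lengths were 6444, 15750 and 9822 bases, in length classes with medians of -0.12 (4000 to 8000 bases) and -0.34 (over 8000 bases) at OHT 4D.

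**Figure D3:**
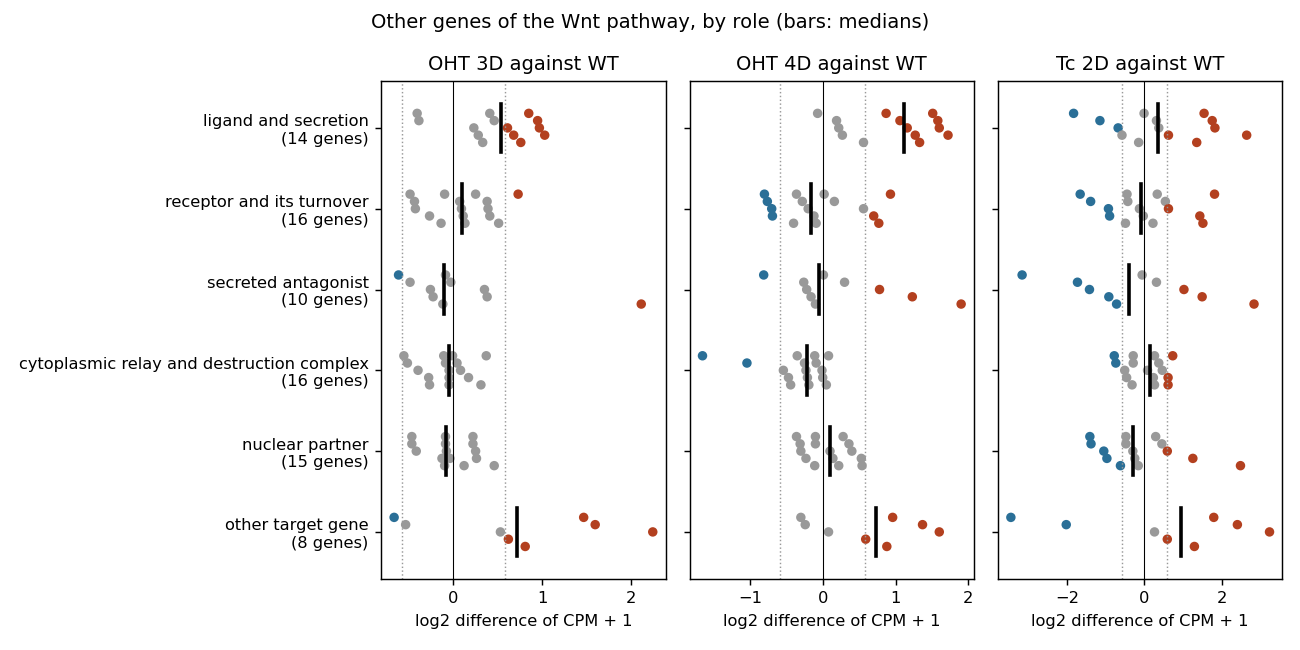
Log2 difference of CPM + 1 against WT (horizontal axes) for the 79 pathway genes tested, by role, at OHT 3D, OHT 4D and Tc 2D; each point is a gene, dotted lines stand at the calling limits, red and blue points are called higher and lower, and black bars are medians. In the ligand and secretion row 7 and 9 of 14 genes lay past the upper limit at OHT 3D and OHT 4D.

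With tetracycline, Lef1 was down to 2 reads, Tcf7 was lower and Axin2 was higher than in WT. Lef1 stood at 13.6 CPM (305 reads) in WT and 0.0705 CPM (2 reads) at Tc 2D, a ratio of 0.00517 (interval 0.000623 to 0.0188). In the ZHBTc4 shRNA control libraries it stood at 1.85 and 7.23 CPM, so the Tc 2D level was below every other library. Tcf7 stood at 34.1 CPM at Tc 2D, against 78.6 in WT and 56.3 and 57.9 in the shRNA controls. Tcf7l1 stood at 57.5 CPM, against 69.2 in WT, and was not called.

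Axin2 stood at 14.0 CPM at Tc 2D, 6.71 in WT and 9.27 and 9.85 in the shRNA controls, the highest of the 8 libraries. Its ratio to WT was 2.09 (1.73 to 2.54) and called, and its ratio to the shRNA controls was 1.47 (1.28 to 1.68), with a log2 difference of 0.51 that was not called. Nkd1, at 4.97 CPM against 3.22 in WT, was not called, with a log2 difference of 0.50. Of the target transcription factors, Cdx1 stood at 2.18 CPM, Sp5 at 0.106 (3 reads) and T at 0.0705 CPM (2 reads), and none was called. With a pseudocount of 0.5 the difference of T was -0.59 and called lower. Ctnnb1 stood at 522 CPM at Tc 2D, 651 in WT and 1236 and 1187 in the shRNA controls, so its difference depended on the control, at -0.32 against WT and -1.21 against the shRNA controls.

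By counts, 1 of 9 members was called higher and 2 lower at Tc 2D against WT, where 23.9% and 25.8% of genes were called higher and lower. The shRNA controls share the ZHBTc4 line but sit in the other table and had lentivirus and no tetracycline. Per the study they were also sequenced on another instrument model than Tc 2D. Against their mean, Cdx1 was called higher and Lef1, Tcf7 and Ctnnb1 lower, against 17.7% and 30.4% of genes. That comparison shifted the median of all genes by -0.17, and with all libraries rescaled together the shift was 0.00. On that scale Axin2 and Cdx1 were called higher and Lef1 and Ctnnb1 lower, against 23.9% and 23.8% of genes, and Tcf7, at -0.54, was not called. Lef1 was the only member called, and called lower, under all 3 choices of control.

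Markers of several cell types moved with Tc 2D. The 4 defining trophectoderm markers, at 0.671 CPM in WT, summed to 84.9 CPM at Tc 2D. Of 13 trophectoderm markers tested, 11 were called higher and 1 lower, and the whole list of 14 summed to 287 and 658 CPM. Several of these, such as Gata3 and Hand1, passed the filter only through depleted libraries. Of all genes, 23.9% and 25.8% were called higher and lower at Tc 2D, and the marker counts are no test. The 15 primitive endoderm genes summed to 470 and 867 CPM, with 6 of 13 tested called higher and 1 lower. Their 3 defining markers summed to 6.48 and 11.5 CPM, where Gata6 was called higher and Gata4 (-0.12) and Sox17 (0.00) were not called. The 14 primitive streak and mesoderm genes summed to 11.6 and 52.7 CPM, with 4 of 5 tested called higher, while T, which is on that list, had 2 reads. Most of that sum was Eomes, at 7.55 CPM in WT and 44.1 at Tc 2D, which is also on the trophectoderm list. Tbx6, another of those called, passed the filter only through Tc 2D. The 3 defining streak markers summed to 0.671 CPM in WT and 0.493 at Tc 2D. Of 27 fibroblast markers tested, 5 were called higher and 11 lower, and the list summed to 965 and 755 CPM. Fn1 made up most of these sums, at 794 CPM in WT and 515 at Tc 2D. The 5 defining fibroblast markers summed to 17.6 and 32.7 CPM, with 1 called higher (Pdgfrb, 0.715 and 25.1 CPM) and 3 lower. Of the 19 pluripotency markers 17 were called lower, and their sum was 4878 CPM in WT and 992 at Tc 2D. Genes over 8000 exon bases had a median log2 difference of 0.33, opposite to that of Lef1. The part of these in the members' levels was not tested.

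Of the 79 pathway genes tested, 24 were called higher and 22 lower at Tc 2D, near the 23.9% and 25.8% of all genes. The largest rises among abundant genes were Wls (4.83 CPM in WT and 35.3 at Tc 2D), Bcl9l, a β-catenin cofactor (17.9 and 104 CPM), and Eomes (7.55 and 44.1 CPM). The largest falls were Ccnd1, the D1 cyclin (123 and 10.4 CPM), Sfrp1, a secreted antagonist (157 and 16.7 CPM), and Ccnd2 (7.20 and 1.02 CPM). Wls was thus higher than WT in all 3 depleted libraries, while Ccnd2 was higher after OHT and lower at Tc 2D.

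After linc1253 knockdown no member passed the test. Because the values were CPM, the test was limma with trend on log2 of CPM + 1, which compared 2 libraries with 2, with Benjamini-Hochberg adjustment over 13407 genes. It called 0 of the 7 members tested and 0% of all genes at an adjusted p of 0.05. At an unadjusted p of 0.05 limma called 999 genes (7.45%). After adjustment edgeR's quasi-likelihood test called 0%, DESeq2 called 50 genes (0.373%) and the edgeR exact test called 80 (0.597%), and none of these calls was a member. DESeq2 gave no adjusted p for Lef1, Cdx1 and Nkd1. Sp5 (0.554 and 0.430 CPM in the controls, 0.283 and 0.351 after knockdown) and T (0.323 and 0.215 CPM, 0.206 and 0.351) were below 1 CPM in all 4 libraries and were not tested.

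Tcf7 came closest, at 56.3 and 57.9 CPM in the controls and 50.3 and 48.2 CPM in the knockdown libraries. Its log2 difference was -0.21 (SE 0.09), with limma adjusted p = 0.684. With the replicate number as a block limma gave Tcf7 an adjusted p of 0.0271, in a fit that called 14.6% of genes. Cdx1 stood at 0.830 and 1.12 CPM in the controls and 1.21 and 1.62 CPM after knockdown, with a log2 difference of 0.29 (SE 0.18) and limma adjusted p = 0.742. Neither gene passed the main test.

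Lef1 stood at 1.85 and 7.23 CPM in the controls and 3.45 and 3.38 CPM in the knockdown libraries, so the control spread covered the knockdown values. Its log2 difference was -0.13 (SE 0.45), with limma adjusted p = 0.963, and without shRNA control replicate 2 it was 0.63. Axin2 stood at 9.27 and 9.85 CPM in the controls and 12.0 and 9.56 CPM after knockdown, and Nkd1 at 4.84 and 3.10 CPM against 4.15 and 3.51 CPM. Tcf7l1 (72.5 and 75.4 against 80.4 and 75.8 CPM) and Ctnnb1 (1236 and 1187 against 1171 and 1156 CPM) differed by 0.08 and -0.06 on the log2 scale, with limma adjusted p of 0.877 and 0.908.

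The groups did not overlap for 4 of the 7 members tested (Tcf7, Tcf7l1, Cdx1 and Ctnnb1), where 38.0% of all genes tested did not overlap. Of the 72 pathway genes tested, 0 were called in either direction by limma. Abundant list genes were taken here by their mean over the 4 shRNA libraries. The largest differences among them were Ccnd2 at 0.75, Myc at 0.50 and Porcn, an enzyme that lipidates Wnt proteins, at 0.49. On the lower side they were Wls at -0.36, Dkk3 at -0.17 and Btrc at -0.17, with limma adjusted p of 0.612 or more for each of these 6 genes. Notum, whose mean was under the limit, differed by 0.74 (limma adjusted p = 0.562).

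The ratio of Pontin to GFP ChIP reads at the members' promoters lay between the 5th and 95th percentiles of all promoters. Pontin reads themselves numbered 63 at Nkd1 to 95 at Tcf7, and every member but Nkd1 lay above the median of 72 over all promoters. Reads were counted from 2.5 kb upstream to 500 bases downstream of each gene start and divided by library size, 40729076 reads for Pontin and 17185883 for GFP. There was 1 library of each, so no test was made. The log2 ratio of Pontin to GFP had a median of 0.34 over all promoters with reads in both libraries, with quartiles at -0.10 and 0.76.

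In this window Cdx1 had the highest ratio of the group, with 76 Pontin and 14 GFP reads, a log2 ratio of 1.20 (interval 0.36 to 2.13) above that of 90.7% of promoters. Within 1 kb either side of the start, Nkd1 (1.69) and Sp5 (1.44) lay above Cdx1 (1.10). With 1 read kept per position and strand, Sp5 (1.06) lay above Cdx1 (1.02). Sp5 had 78 and 16 reads and a ratio of 1.04 (0.25 to 1.92), and Nkd1 had 63 and 13 reads and a ratio of 1.03 (0.16 to 2.02), above 86.4% and 86.1% of promoters. Tcf7 had 95 and 24 reads, with a ratio of 0.74 (0.08 to 1.45). These 4 members had intervals above 0, as did 26.4% of promoters, and no member exceeded the 95th percentile of promoters, 1.43. Both reads of a pair were counted and they are not independent, so these intervals are too narrow.

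T had 79 and 25 reads and a log2 ratio of 0.42 (-0.25 to 1.13), Axin2 80 and 29 reads and 0.22 (-0.41 to 0.89), and Lef1 78 and 31 reads and 0.09 (-0.53 to 0.74). Ctnnb1, with 79 and 34 reads, and Tcf7l1, with 90 and 43 reads, had ratios of -0.03 (-0.63 to 0.60) and -0.18 (-0.72 to 0.38). Pontin reads ranged only from 63 to 95 among the 9 promoters, while GFP reads ranged from 13 to 43, so the order of the ratios followed mostly the GFP counts. Counting each read pair once left 1 member, Cdx1, with an interval above 0 (log2 ratio 1.32, 0.15 to 2.73), where 18.5% of promoters had one. The members with the 4 highest ratios in the window used here, Cdx1, Sp5, Nkd1 and Tcf7, were also 4 of the 5 with a TCF word in the 300 bases upstream. This is a description of 9 genes and was not tested.

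**Figure D4:**
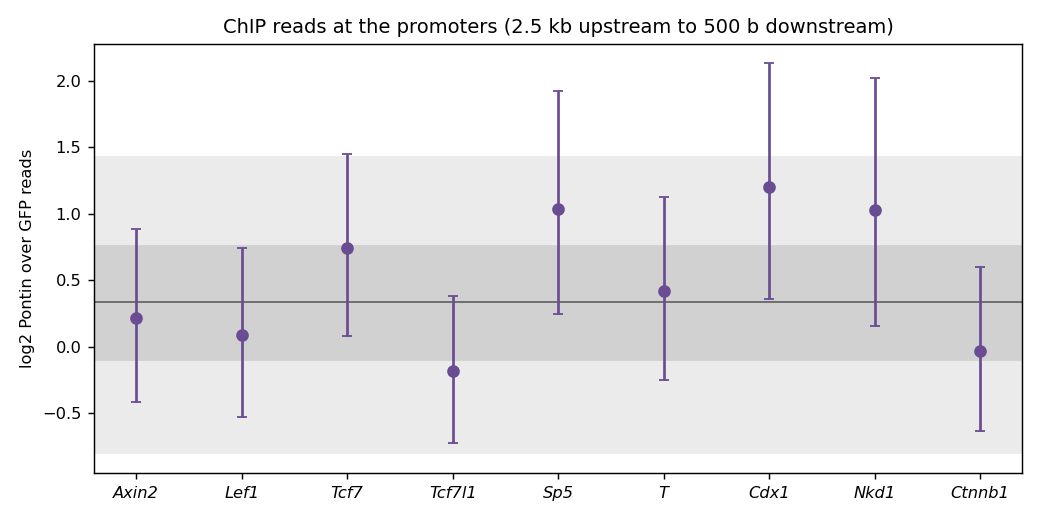
Log2 ratio of Pontin to GFP ChIP reads (vertical axis) at the 9 promoters. Bars are 95% counting intervals on reads, too narrow because both reads of a pair were counted. The line is the median of all promoters (0.34), and the dark and light bands hold the middle 50% and 90% of promoters. All 9 points lay inside the light band, between -0.18 and 1.20.

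Summed over the 9 promoters in bins of 250 bases, Pontin reads ranged from 0.835 to 2.14 RPM (reads scaled by library size) and GFP reads from 0.407 to 1.86 RPM within 2.5 kb of the start. The highest Pontin bin lay 250 to 500 bases downstream of the start, at 2.14 against 1.28 RPM for GFP, and the bin 500 to 750 bases upstream had 2.04 against 0.815 RPM. The mean of all promoters, multiplied by 9, had a single rise at the start itself, 1.98 RPM for Pontin and 1.49 for GFP in the first 250 bases. No such single rise stood out among the members, where a bin held 34 to 87 Pontin and 7 to 32 GFP reads.

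**Figure D5:**
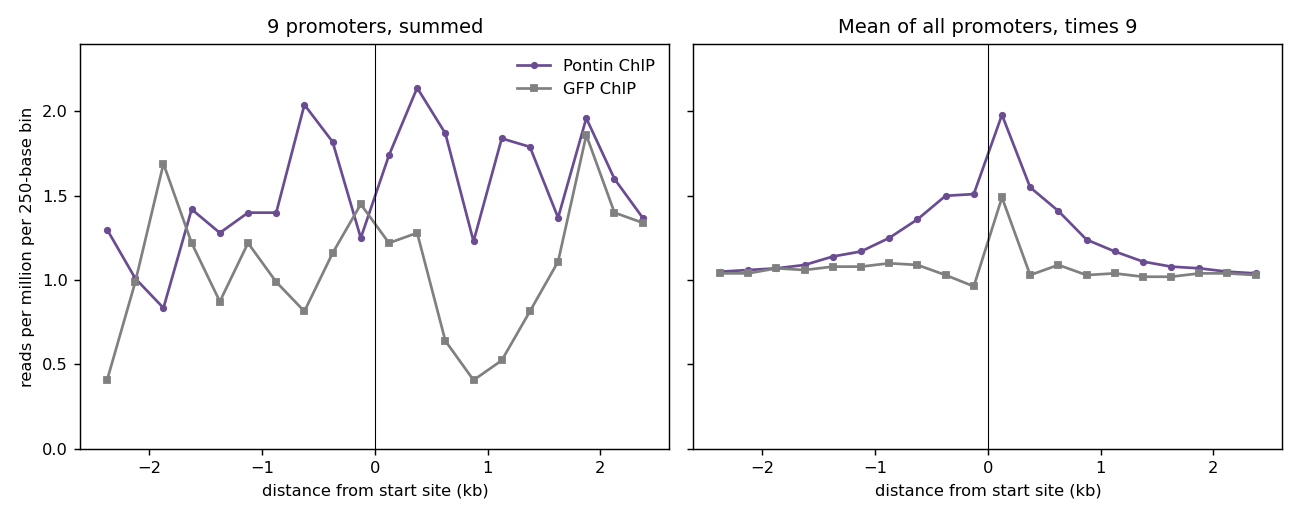
ChIP reads in RPM per 250-base bin (vertical axes) against distance from the start site in kb (horizontal axes), for the 9 promoters summed (left) and the mean of all promoters times 9 (right); purple is Pontin and grey is GFP. The mean of all promoters peaked in the first 250 bases at 1.98 for Pontin, whereas the members' highest bins, 2.14 and 2.04, lay to either side.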

How the data were processed

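The deposited mRNA values were CPM per gene: per the labels and the study's methods the authors trimmed reads, aligned them to NCBIM37 with TopHat (up to 2 mismatches and 10 locations), counted them with HTSeq and scaled them by TMM in edgeR, separately for each of the 2 tables. Reads shared between near-identical genes may be split by such counting. Whole reads were recovered from the CPM steps for 100% of values within 0.01 of a whole number. The deposited ChIP files were read positions aligned by Bowtie2 (mapping score of 5 or more), and reads were counted by their midpoints.

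For groups of 1 library, log2 of CPM + 1 was compared with WT among genes above 1 CPM in at least 1 library, and absolute differences above 0.58 were called. linc1253 knockdown was tested with limma 3.58.1, with edgeR 4.0.16 and DESeq2 1.42.0 as alternatives, in R 4.3.3, on recovered reads. Scripts were tested on simulated data. Promoters and exons came from the annotation matching NCBIM37. The members, lists and alternatives were chosen with earlier results of these data known. Besides the 9 members, list genes were named if called the same way at both OHT times, or as the 3 largest rises and falls per comparison. The rises and falls were taken among genes with a mean of at least 5 CPM over the libraries of that table. Wnt5a, Wnt5b, Rspo1, Tbx6 and Notum were named outside these rules.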

Additional observations from a re-analysis of the deposited data

Results flagged for a closer look

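Ctnnb1 was called at neither OHT time, yet it lay on opposite sides of WT, with a log2 difference of 0.09 after 3 days and -0.06 after 4 days of OHT, and both counting intervals left out equal levels (0.06 to 0.12 and -0.09 to -0.03). The difference between the times was not tested, as each was 1 library and the intervals cover counting error only.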

How the results depend on the processing

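The counts of members called at OHT 3D, OHT 4D and Tc 2D kept within 1.5 times their values in 18 of 20 settings, although the members called could differ, as for Tc 2D against the shRNA controls. Settings without the filter could not change a count, as all 9 members had passed it. With counts of 3 or 4, this limit also lets 1 gene join or leave. With an absolute log2 difference above 1, 0 members were called at OHT 3D in place of 3. With a filter above 5 CPM, which leaves out Sp5 and T, 2 were called at OHT 4D in place of 4. Of these 2, Cdx1 passed that filter only through OHT 4D. With a replicate block, 1 member, Tcf7, was called lower after linc1253 knockdown (limma adjusted p = 0.0271). That fit called 1960 genes, against 0 without the block. Deviations of same-numbered libraries correlated at 0.673, but with 2 pairs and no label that ties the numbers, the block was not the main fit. Leaving out 1 shRNA library at a time, where the lone library is assumed to vary like the other group, left 0 members called, which says little as 0 genes were called with all 4. The log2 difference of Lef1 turned to 0.63 without shRNA control replicate 2 (range -0.90 to 0.63), and that of Nkd1 turned to 0.23 without shRNA control replicate 1 and to 0.07 without linc1253 knockdown replicate 2 (range -0.28 to 0.23). The causes were not tested. For ChIP, 5 members lay above the median ratio of all promoters, or 6 with a mapping quality of at least 30. The order of the members differed between settings. Within 1 kb either side of the start the log2 ratios of Ctnnb1 and Tcf7l1 were above 0, at 0.45 and 0.19. Depth limited Sp5 and T most, with 2 to 10 reads each in WT, OHT 3D and Tc 2D, and 3 reads were worth 0.0773 to 0.138 CPM.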

Other observations

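The genes whose pattern over the 8 mRNA libraries was most like that of Axin2, by Pearson's r of log2 of CPM + 1 with each table centred on its mean, were Lpgat1 (r = 0.985), Unkl (0.982) and Trio (0.981), out of 9957 genes compared. Trio, a guanine nucleotide exchange factor, stood at 19.9 CPM in WT, 26.0 and 13.8 CPM after 3 and 4 days of OHT, and 78.0 CPM with tetracycline. For Ctnnb1 they were Tsnax (r = 0.987), Naa11 (0.982) and Psg16 (0.978), and Tsnax stood at 75.9, 82.0, 71.4 and 60.8 CPM in the same order. Both sets rest on the same libraries, so these values describe the libraries only.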
